A study of Mus musculus with 13 samples.

Results

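The genes described here are 31 genes of ribosome biogenesis and RNA polymerase I, listed by name, out of 54532 genes in the deposited table of mouse liver RNA. All 31 were found, and all 31 passed the filter on low counts that left 14280 genes for testing. Livers came from wild-type C57 BL6 mice, 8 weeks old and about 20 g, and were taken at 6 h. The groups were saline (3 libraries), GalN/LPS (3 libraries; 500 mg/kg D-galactosamine plus 5 µg/kg lipopolysaccharide, intraperitoneal), pretreated (4 libraries; dmPGE2, a dimethyl derivative of prostaglandin E2, at 300 µg/kg intraperitoneally 1 h ahead of the same GalN/LPS) and dmPGE2 alone (3 libraries; 300 µg/kg). For dmPGE2 alone the labels do not say whether the 6 h count from dmPGE2. D-galactosamine is a hepatocyte toxin that drains uridine nucleotides, and together with endotoxin it is a standard model of acute liver failure. The labels do not say that each library is its own animal, so the spread behind each p-value may be technical.

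Ribosomes are built in the nucleolus. RNA polymerase I, brought to the ribosomal DNA by upstream binding factor and by the initiation factor encoded by Rrn3, makes the long precursor of the 18S, 5.8S and 28S RNAs. Small nucleolar RNA particles of the box C/D kind methylate that precursor and those of the box H/ACA kind convert uridines to pseudouridines, while separate sets of processing factors carve out the small and the large subunit. Many of these genes are textbook targets of the transcription factor Myc, which binds the E box, and in the liver they are best known for their rise when hepatocytes prepare to divide. The values below are levels of the mRNAs, and the precursor RNA itself was not measured.

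The promoters of 4 members are shown because these members moved together or stood apart. Rrn3 and Nop2 fell and hold the Myc-type E box, Nolc1 fell and holds none, and Nop10 was higher in pretreated livers. Each line gives the 250 bases before the start in RefSeq (GRCm38.p6), 5′ to 3′ on the + strand, with E boxes in capitals.
Rrn3, chr16:13780449-13780698: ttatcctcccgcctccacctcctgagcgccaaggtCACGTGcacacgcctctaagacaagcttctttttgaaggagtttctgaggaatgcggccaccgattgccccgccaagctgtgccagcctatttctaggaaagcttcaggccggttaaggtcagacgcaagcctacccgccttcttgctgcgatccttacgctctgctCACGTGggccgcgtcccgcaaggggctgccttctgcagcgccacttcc
Nop2, chr6:125131633-125131882: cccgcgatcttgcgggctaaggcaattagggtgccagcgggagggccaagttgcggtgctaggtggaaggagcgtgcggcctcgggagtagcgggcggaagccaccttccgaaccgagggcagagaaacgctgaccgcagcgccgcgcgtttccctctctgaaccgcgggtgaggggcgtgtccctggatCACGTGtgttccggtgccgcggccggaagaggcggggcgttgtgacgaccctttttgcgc
Nolc1, chr19:46075597-46075846: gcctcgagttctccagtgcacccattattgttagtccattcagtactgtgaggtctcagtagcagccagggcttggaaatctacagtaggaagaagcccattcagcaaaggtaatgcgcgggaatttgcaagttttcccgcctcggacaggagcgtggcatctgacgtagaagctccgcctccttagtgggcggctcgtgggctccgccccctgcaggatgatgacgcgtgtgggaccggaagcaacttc
Nop10, chr2:112261676-112261925: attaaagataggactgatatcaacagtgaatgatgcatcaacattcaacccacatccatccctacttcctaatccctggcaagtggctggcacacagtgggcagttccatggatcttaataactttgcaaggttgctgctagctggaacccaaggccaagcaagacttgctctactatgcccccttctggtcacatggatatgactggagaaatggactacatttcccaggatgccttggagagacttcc
Rrn3 held 2 E boxes here, with first bases at -215 and -48 from the start, and Nop2 held 1, at -60. The 250 bases of Nop2 held 30 CpG pairs and those of Nop10 held 0. Of the 31 members, 27 matched a RefSeq promoter of 300 bases (250 before to 50 after the start), and Fbl, Rrs1, Bop1 and Npm1 did not. The E box, spelled CACGTG and the same on both strands, was in 6 of those 27 members (22.2%; Ltv1, Mybbp1a, Nop2, Pes1, Rrn3 and Wdr43), against 8.09% of 27025 gene symbols with a promoter. The ETS-type motif CCGGAAG, searched on both strands, was in 8 of 27 (29.6%) against 9.93%, and TATAAA was in 2 of 27 (7.41%) against 15.7%. Member promoters had a median GC content of 59.67% and 21.5 CpG pairs, against 52.67% and 7 in all promoters. These matches describe letters only, and the motifs do not overlap each other in the 4 sequences printed.

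Total counts ranged from 14829838 to 20777809 per library. The TMM scaling factors differed by group, with saline at 1.17 to 1.18, dmPGE2 at 1.16 to 1.28, GalN/LPS at 0.904 to 1.14 and pretreated at 0.683 to 0.830. Scaling to plain library totals instead moved the median log2 change of all genes from 0.03 to -0.15 in GalN/LPS against saline, from -0.10 to -0.61 in pretreated against GalN/LPS, and from 0.14 to -0.54 in pretreated against saline. Falls are larger and rises smaller with library totals, and rises of members that passed the test with TMM scaling are given below with both. Cell type markers moved too. The summed CPM (counts scaled to library size with the TMM factor) of 8 hepatocyte markers was 85978 to 99204 in saline, 65354 to 72243 in dmPGE2, 89742 to 128196 in GalN/LPS and 135412 to 214495 in pretreated livers, with none at 0. In pretreated against saline 8 of 8 were higher with TMM and 1 of 8 with library totals, where 34.8% and 11.8% of all genes were. In pretreated against GalN/LPS the counts were 7 and 2, where 24.4% and 4.33% of all genes were higher. The sum of 8 neutrophil markers was 4.98 to 16.5, 5.65 to 9.59, 671 to 892 and 261 to 417 in the same order, with Ly6g at 0 in all dmPGE2 libraries. The 8 Kupffer cell and macrophage markers summed to 159 to 202, 196 to 267, 624 to 992 and 295 to 464. All 8 neutrophil, 7 of 8 Kupffer cell and macrophage and 8 of 8 sinusoidal endothelial markers rose in GalN/LPS against saline. All 8 of each fell in pretreated against GalN/LPS. Among all genes 27.4% rose in GalN/LPS against saline and 30.1% fell in pretreated against GalN/LPS. The part of the cell types in the results below was not tested. In whole liver, fewer cells of a type and less RNA per cell cannot be told apart.

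Per length of gene, the members spanned a wide range of levels. In saline livers the 3 highest were Nop10 at 38.9 ± 3.46 FPKM (SD, n = 3), Npm1 at 38.3 ± 4.61 FPKM and Nhp2 at 26.9 ± 2.71 FPKM, and the ranges of Nop10 and Npm1 overlapped. The lowest were Rrp1b at 0.640 ± 0.122 FPKM and Wdr12 at 1.35 ± 0.112 FPKM. Next came Ncl at 16.2 ± 0.223 FPKM and Nop16 at 16.0 ± 0.915 FPKM. With TMM scaling, of these 5 abundant members Nop10, Npm1 and Nhp2 were higher in pretreated than in saline livers, Ncl passed no test and Nop16 was lower. Scaled to library totals, Nop10, Npm1 and Nhp2 were at 0.11, -0.10 and -0.18 (log2), none past the test. Summed FPKM of the 31 members was 248 to 273 (saline), 227 to 237 (dmPGE2), 244 to 268 (GalN/LPS) and 231 to 280 (pretreated). The dmPGE2 libraries lay below all saline and GalN/LPS libraries, and the other ranges overlapped. Their share of all counts, which longer genes weigh more and which takes plain library totals, was 0.0966 to 0.106% (saline), 0.0922 to 0.102% (dmPGE2), 0.0689 to 0.0928% (GalN/LPS) and 0.0484 to 0.0573% (pretreated). The pretreated libraries were below all others in that share. Summed CPM, with TMM scaling and also not divided by length, was 829 to 897 (saline), 735 to 796 (dmPGE2), 763 to 832 (GalN/LPS) and 682 to 786 (pretreated). There the pretreated range lay below saline and overlapped those of dmPGE2 and GalN/LPS.

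**Figure D1:**
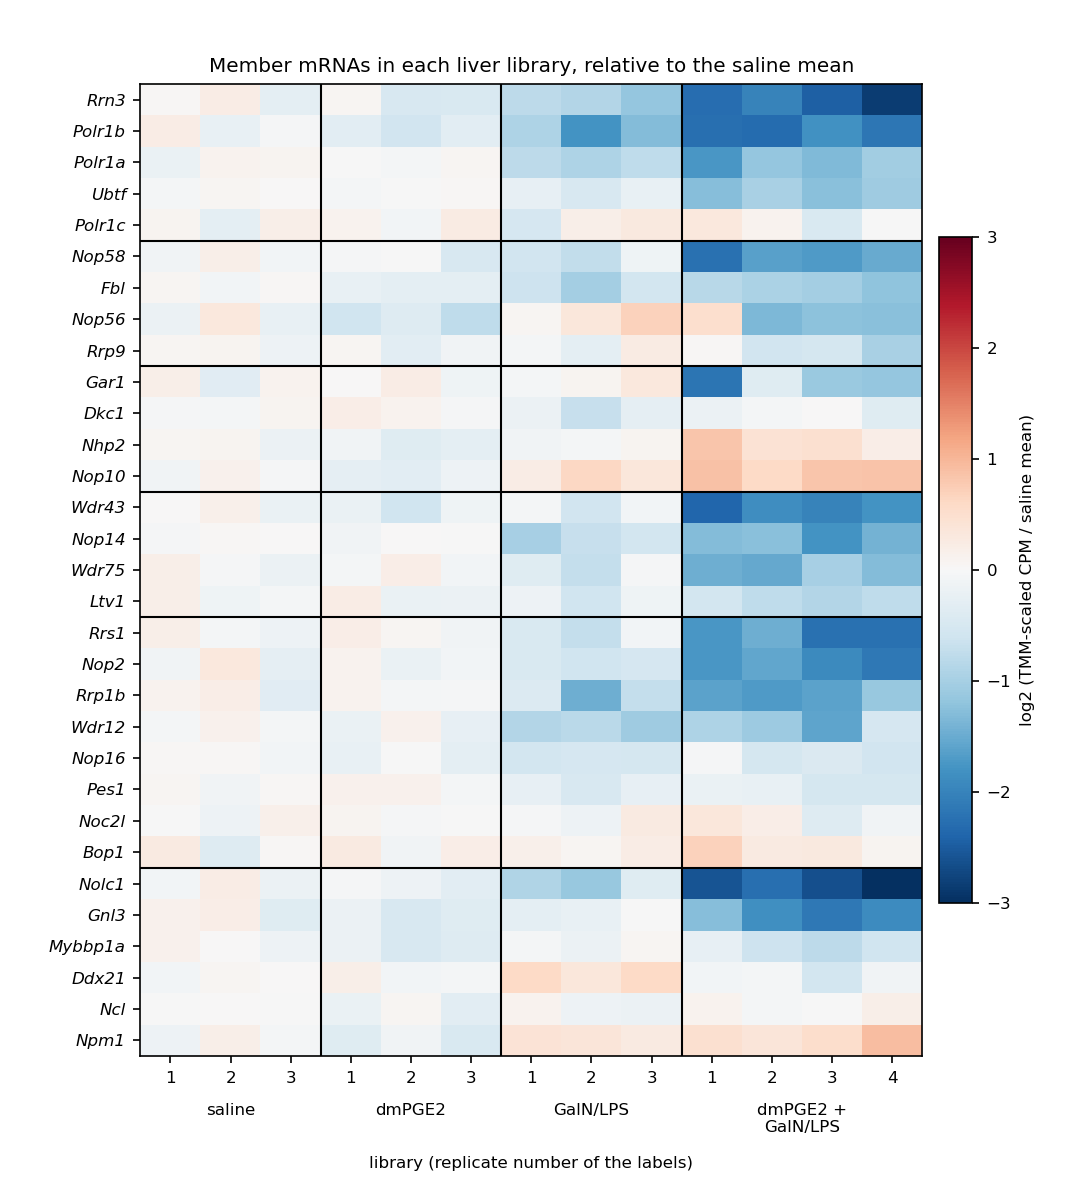
Heat map of the 31 members (rows, by role) in the 13 libraries (columns, by group), colored by log2 of the TMM-scaled CPM over the saline mean. The pretreated columns are the bluest for most members, such as Nolc1 and Rrn3, while Nop10, Nhp2 and Npm1 are red there and Ddx21 is red in GalN/LPS.

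In GalN/LPS against saline, 11 of 31 members fell and 2 rose (edgeR quasi-likelihood test, adjusted over all genes). Among all genes tested 25.6% fell and 27.4% rose. The members' median log2 change was -0.31, against 0.03 over all genes. In 15 members every GalN/LPS library lay below every saline library (48.4%, against 29.5% of all genes), and in 3 every one lay above (30.3% of all genes).

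In pretreated against GalN/LPS, 18 members fell and 2 rose, against 30.1% and 24.4% of all genes. Every pretreated library lay below every GalN/LPS library in 15 members and above in 1, against 27.7% and 22.7% of all genes. The median was -0.49, against -0.10 over all genes, and 8 members fell at least 2-fold, as did 18.2% of all genes. This comparison shares its GalN/LPS libraries with the one before. Below, the first and second step name these 2 comparisons of parallel groups, all taken at 6 h, and not an order in time. Against saline, 20 members were lower and 3 higher in pretreated livers, where 30.2% and 34.8% of all genes were. Of the 20, 14 were at least 2-fold lower, against 19.5% of all genes, and the median was -0.97, against 0.14. With library totals the counts lower and higher became 13 and 0, 24 and 0, and 27 and 0 in these 3 comparisons, where 30%, 47.6% and 47.6% of all genes were lower and 21.5%, 4.33% and 11.8% were higher.

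There were 8 members that stepped down in both comparisons. Polr1a, Polr1b, Rrn3, Ubtf, Nop14, Nop2, Nolc1 and Rrp1b passed the test both in GalN/LPS against saline and in pretreated against GalN/LPS, as did 6.37% of all genes. In 8 members (the same without Rrp1b and with Nop58) the 3 groups lay in separate steps with no overlap, as did 6.71% of all genes. A second set of 8, Nop58, Gar1, Wdr43, Wdr75, Ltv1, Rrs1, Gnl3 and Mybbp1a, did not pass the test in GalN/LPS against saline and was lower in pretreated livers against both groups, as were 6.49% of all genes. Polr1c, Bop1, Noc2l, Ncl, Dkc1 and Rrp9 passed no test between these 3 groups with TMM scaling, nor did 18% of all genes. With library totals Polr1c, Noc2l, Ncl, Dkc1 and Rrp9 were lower in pretreated against saline (-0.66, -0.64, -0.63, -0.81 and -1.14), and Bop1 was not called (-0.33).

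**Figure D2:**
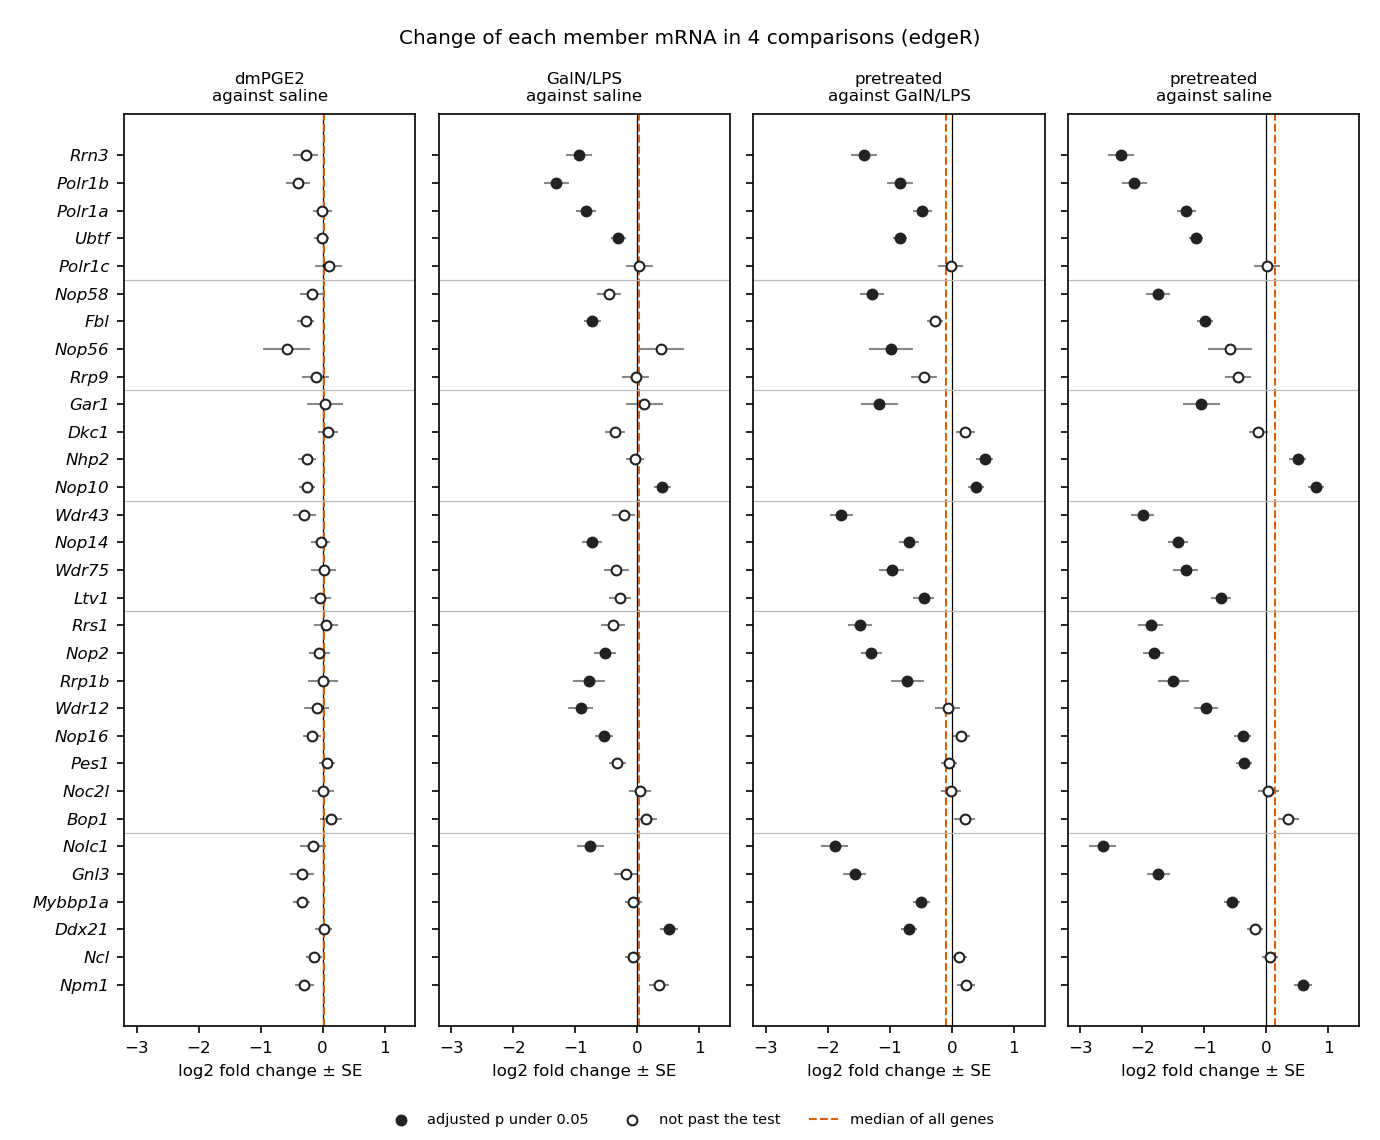
Log2 fold change with its SE (edgeR) for each member in 4 comparisons, filled where the adjusted p was under 0.05, with the median of all genes dashed. No point is filled for dmPGE2 against saline, and most filled points lie left of the dashed line in the other 3 panels.

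Of the 5 genes of RNA polymerase I and its initiation factors, 4 fell in each step (80% in each, against 25.6% and 30.1% of all genes). Rrn3, the factor that makes RNA polymerase I competent to start, stood at 16.2, 18.6 and 12.9 CPM in saline, 16.4, 11.3 and 11.6 CPM in dmPGE2, 9.18, 8.57 and 7.11 CPM in GalN/LPS and 3.25, 3.96, 2.92 and 2.197 CPM in pretreated libraries. Its change was -0.94 ± 0.21 (log2 ± SE, adjusted p = 0.00127) in GalN/LPS against saline and -1.41 ± 0.21 (log2 ± SE, adjusted p = 0.000114) in pretreated against GalN/LPS. The 3 groups did not overlap, and pretreated livers held 0.196 times the saline level. Polr1b, the second-largest polymerase I subunit, stood at 18.2, 13.4 and 15.2 CPM in saline, 12.5, 10.5 and 12.5 CPM in dmPGE2, 8.17, 4.47 and 6.29 CPM in GalN/LPS and 3.25, 3.14, 4.42 and 3.47 CPM in pretreated libraries. It changed by -1.30 ± 0.21 (log2 ± SE, adjusted p = 6.59e-05) and then -0.83 ± 0.21 (log2 ± SE, adjusted p = 0.00383), and no library of one step reached the next. Polr1a, the catalytic subunit, stood at 16.6, 20.6 and 20.2 CPM in saline, 18.8, 18.4 and 19.98 CPM in dmPGE2, 11.1, 10.01 and 11.3 CPM in GalN/LPS and 5.71, 8.53, 7.67 and 9.21 CPM in pretreated libraries. Its changes were -0.82 ± 0.16 (log2 ± SE, adjusted p = 0.00047) and -0.47 ± 0.16 (log2 ± SE, adjusted p = 0.0187). The second was not called without GalN/LPS 1 or GalN/LPS 3 (-0.45 in both cases) or in a fit of the groups compared alone (-0.49). Ubtf, the upstream binding factor that opens ribosomal DNA, stood at 38.9, 42.2 and 41.3 CPM in saline, 38.95, 40.6 and 41.9 CPM in dmPGE2, 34.5, 29.2 and 35.2 CPM in GalN/LPS and 16.9, 20.7, 17 and 19.6 CPM in pretreated libraries. Its first change was small, -0.31 ± 0.12 (log2 ± SE, adjusted p = 0.0425), and was not called without saline 1, 2 or 3 or GalN/LPS 1 or 2 (-0.35, -0.30, -0.31, -0.34 and -0.24) or in a fit of the 2 groups alone (-0.30). Without GalN/LPS 3 it was -0.47. Its second change was -0.83 ± 0.12 (log2 ± SE, adjusted p = 6.05e-05). Polr1c, a subunit that RNA polymerase III also uses, stood at 16.1, 12.4 and 17.4 CPM in saline, 16.4, 14.5 and 18.2 CPM in dmPGE2, 10.8, 17.4 and 18.8 CPM in GalN/LPS and 18.96, 16.4, 11.1 and 15.3 CPM in pretreated libraries, and all 4 groups overlapped. It passed no test with TMM scaling (0.01 in pretreated against saline), while with library totals it was lower there (-0.66).

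The box C/D proteins did not move as one. Nop58, a core scaffold protein, stood at 18.3, 22.3 and 18.6 CPM in saline, 19.2, 19.5 and 14.1 CPM in dmPGE2, 13.3, 11.9 and 18.01 CPM in GalN/LPS and 4.204, 6.35, 6.08 and 6.93 CPM in pretreated libraries. Its first change was -0.45 ± 0.19 (log2 ± SE, adjusted p = 0.0626), which passed without GalN/LPS 3 (-0.76), with library totals (-0.61) and without the filter on low counts (-0.59). Its second change was -1.29 ± 0.19 (log2 ± SE, adjusted p = 0.000103), and each pretreated library was below each GalN/LPS library. Fbl, the methyltransferase fibrillarin, showed the other order. It stood at 33.2, 30.2 and 32.6 CPM in saline, 27.3, 26.2 and 26.1 CPM in dmPGE2, 20.7, 15.7 and 21.7 CPM in GalN/LPS and 17.9, 16.6, 15.8 and 13.9 CPM in pretreated libraries, with -0.72 ± 0.14 (log2 ± SE, adjusted p = 0.000404) in the first step and -0.27 ± 0.13 (log2 ± SE, adjusted p = 0.0949) in the second, where GalN/LPS 2 lay below 3 of the pretreated libraries. Without GalN/LPS 2 the second change was -0.39 and passed, as it did with library totals (-0.80). Nop56, the partner of Nop58, stood at 16.7, 23.5 and 16.3 CPM in saline, 12.4, 14.4 and 11.04 CPM in dmPGE2, 19.5, 23.7 and 30.4 CPM in GalN/LPS and 26.9, 7.37, 8 and 7.86 CPM in pretreated libraries. One library, pretreated 1, was as high as the GalN/LPS livers and the other 3 pretreated libraries were between 7.37 and 8 CPM. With all 4 the change against GalN/LPS was -0.97 ± 0.35 (log2 ± SE, adjusted p = 0.0299). It was -1.67 without pretreated 1, and was not called without GalN/LPS 2 or 3 or without pretreated 2, 3 or 4 (-0.99, -0.80, -0.78, -0.81 and -0.81) or in a fit of the 2 groups alone (-0.98). Against saline it was -0.59 ± 0.36 (log2 ± SE, adjusted p = 0.157), and -1.28, past the test, without pretreated 1. Without the filter on low counts (-0.75) and with library totals (-1.28) it passed too. Rrp9, which binds the U3 particle, stood at 8.84, 8.96 and 7.58 CPM in saline, 8.802, 6.78 and 7.84 CPM in dmPGE2, 8.06, 6.93 and 9.98 CPM in GalN/LPS and 8.72, 5.67, 5.83 and 4.31 CPM in pretreated libraries. Its change against GalN/LPS, -0.44 ± 0.21 (log2 ± SE, adjusted p = 0.0875), and that against saline, -0.46 ± 0.21 (log2 ± SE, adjusted p = 0.0637), passed without pretreated 1 (-0.66 and -0.68) and with library totals (-0.96 and -1.14). The one against saline also passed in DESeq2 (-0.52), without the filter (-0.62), in the fit of the 2 groups alone (-0.62) and on log2(FPKM + 1) or log2(FPKM + 0.1) values (-0.40 and -0.55). Rrp9 overlaps Parp3 on the other strand by 987 bases, and Parp3 had more counts (4606 against 1840 over all libraries), so its value is uncertain.

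The box H/ACA particle has 4 core proteins, and with TMM scaling they went 3 ways. Gar1 fell, the small proteins Nop10 and Nhp2 rose, and Dkc1, the pseudouridine synthase dyskerin, passed no test. Gar1 stood at 4.903, 3.44 and 4.61 CPM in saline, 4.34, 5.05 and 3.92 CPM in dmPGE2, 4.14, 4.53 and 5.37 CPM in GalN/LPS and 0.952, 3.34, 2 and 1.94 CPM in pretreated libraries. No change was seen in GalN/LPS livers beyond the spread of the groups, which overlapped, and in pretreated against GalN/LPS it changed by -1.17 ± 0.30 (log2 ± SE, adjusted p = 0.00403). Each pretreated library was below each library of the other groups, the highest being pretreated 2 at 3.34 CPM and the lowest saline one 3.44 CPM. Nop10 stood at 39.3, 46.5 and 41.7 CPM in saline, 35.3, 33.98 and 38.2 CPM in dmPGE2, 49.8, 65.9 and 53.5 CPM in GalN/LPS and 77.6, 64.4, 76.1 and 77.5 CPM in pretreated libraries. It rose by 0.41 ± 0.13 (log2 ± SE, adjusted p = 0.0155) and then by 0.39 ± 0.12 (log2 ± SE, adjusted p = 0.0145), and against saline by 0.80 ± 0.12 (log2 ± SE, adjusted p = 4.26e-05). With library totals these were 0.22, -0.11 and 0.11, none past the test. The first rise was also lost without saline 1 or 3 or GalN/LPS 2 or 3 (0.34, 0.38, 0.27 and 0.33) and without the filter (0.27). The second was lost without GalN/LPS 1 or 3 (0.31 and 0.34) and without the filter (0.36). Nhp2, which with Nop10 holds the particle together, stood at 31.8, 32.1 and 27.02 CPM in saline, 28.02, 23.7 and 24.6 CPM in dmPGE2, 28.1, 29.2 and 31.8 CPM in GalN/LPS and 53.6, 40.96, 42.2 and 34.99 CPM in pretreated libraries. Its rise of 0.53 ± 0.14 (log2 ± SE, adjusted p = 0.00505) over GalN/LPS became 0.02 with library totals, and its rise of 0.50 ± 0.14 (log2 ± SE, adjusted p = 0.00501) over saline became -0.18 there, 0.34 without the filter and 0.35 in the fit of the 2 groups alone, none of them called. Each pretreated library was above every other library in Nhp2. Against saline, Gar1 was at -1.05 ± 0.30 (log2 ± SE, adjusted p = 0.00542), or -1.71 with library totals, so under both scalings it lay below the other 3 proteins of the particle. Dkc1 stood at 9.44, 9.26 and 10.1 CPM in saline, 11.1, 10.3 and 9.32 CPM in dmPGE2, 8.49, 5.98 and 8.03 CPM in GalN/LPS and 8.57, 9.28, 9.67 and 7.52 CPM in pretreated libraries. Its change in GalN/LPS, -0.35 ± 0.16 (log2 ± SE, adjusted p = 0.081), passed without GalN/LPS 3 (-0.52), and in pretreated against saline it was lower with library totals (-0.81).

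**Figure D3:**
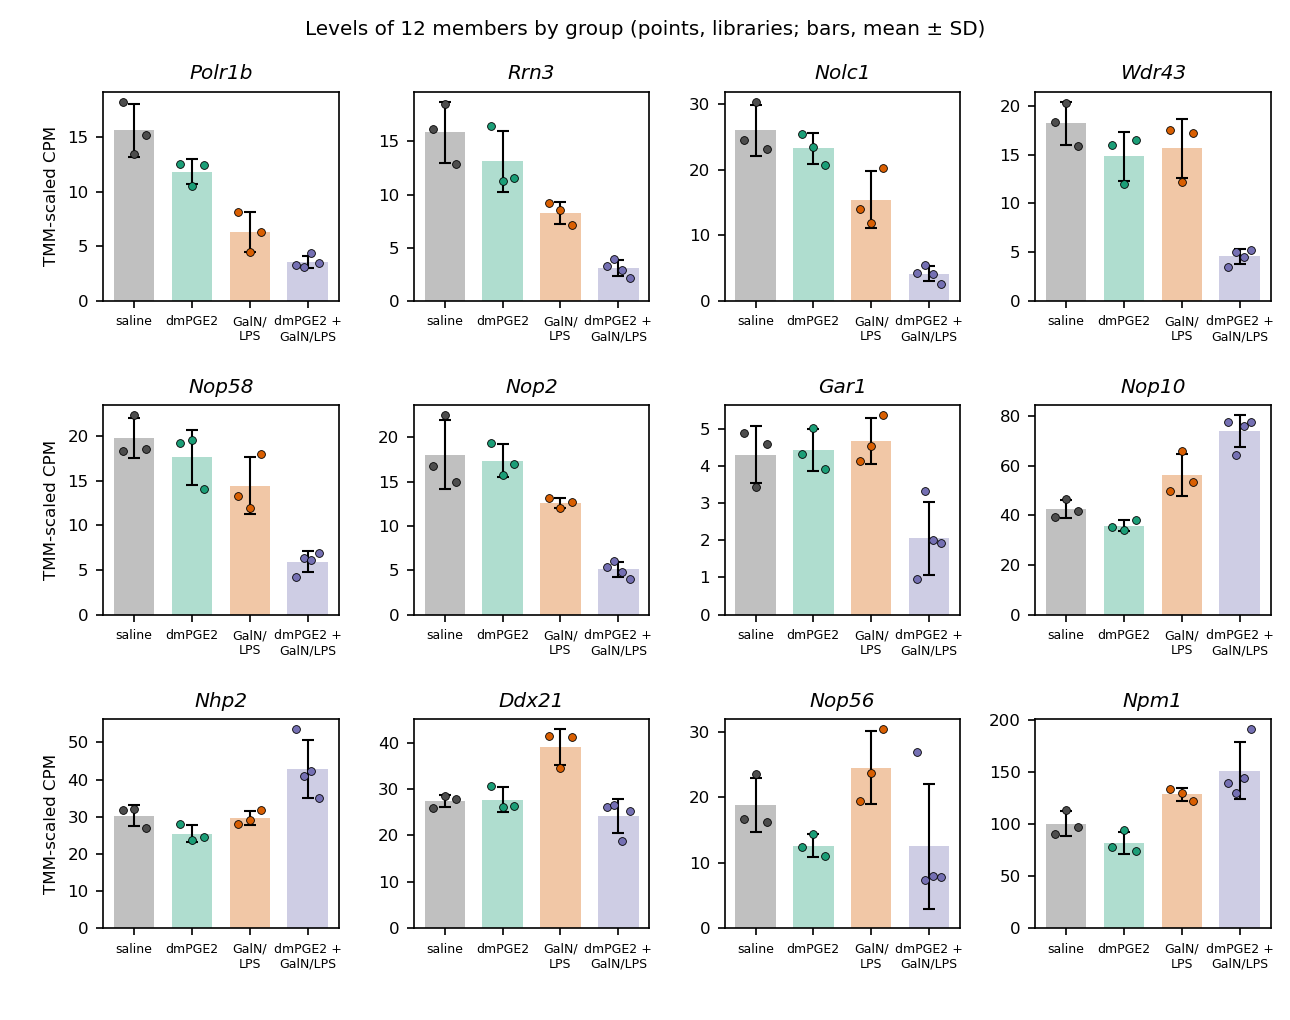
TMM-scaled CPM of 12 members in each library (points), with group means (bars from 0) and SD (lines), n = 3, 3, 3 and 4 from left to right. Polr1b, Rrn3, Nolc1 and Nop2 go down in steps from saline to GalN/LPS to pretreated, Wdr43 and Gar1 are lowest in the pretreated bar, Ddx21 is highest in GalN/LPS, and 1 pretreated library of Nop56 sits at 26.9 CPM.

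All 4 small subunit factors fell in pretreated against GalN/LPS (30.1% of all genes), and 1 of 4 (25%) in GalN/LPS against saline (25.6% of all genes). Wdr43, a protein of the complex that first loads on the precursor, changed most. It stood at 18.4, 20.3 and 15.9 CPM in saline, 15.96, 11.9 and 16.5 CPM in dmPGE2, 17.6, 12.2 and 17.2 CPM in GalN/LPS and 3.49, 4.98, 4.5 and 5.24 CPM in pretreated libraries. Its first change was -0.22 ± 0.18 (log2 ± SE, adjusted p = 0.343) with groups that overlapped, and its second -1.78 ± 0.19 (log2 ± SE, adjusted p = 7.26e-06). The highest pretreated library was at 5.24 CPM and the lowest of any other group at 11.9 CPM. Wdr75, of the same early complex, stood at 9.39, 8.06 and 7.34 CPM in saline, 7.904, 9.45 and 7.798 CPM in dmPGE2, 6.47, 5.04 and 8.09 CPM in GalN/LPS and 3.01, 2.87, 4.17 and 3.38 CPM in pretreated libraries. It changed by -0.34 ± 0.20 (log2 ± SE, adjusted p = 0.172) and -0.97 ± 0.20 (log2 ± SE, adjusted p = 0.00108), and the first passed without GalN/LPS 3 (-0.63). Nop14, a small subunit processome protein, was the one that fell in both steps, at 12.1, 12.6 and 12.4 CPM in saline, 11.6, 12.6 and 12.2 CPM in dmPGE2, 6.26, 7.62 and 8.49 CPM in GalN/LPS and 4.997, 5.19, 3.58 and 4.65 CPM in pretreated libraries. Its changes were -0.73 ± 0.16 (log2 ± SE, adjusted p = 0.00127) and -0.69 ± 0.16 (log2 ± SE, adjusted p = 0.00229). Ltv1, which acts later in the cytoplasm on the pre-40S particle, fell least, from 9.85 ± 1.71 CPM (SD, n = 3) in GalN/LPS to 7.2001 ± 0.6998 CPM (SD, n = 4) in pretreated livers, -0.45 ± 0.17 (log2 ± SE, adjusted p = 0.031). That call was lost without GalN/LPS 1 or 3 (-0.38 in both cases), without pretreated 2, 3 or 4 (-0.44, -0.41 and -0.45), without the filter (-0.48) and in the fit of the 2 groups alone (-0.47). Against saline Ltv1 was lower by -0.73 ± 0.16 (log2 ± SE, adjusted p = 0.00107).

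Among the 8 large subunit factors, 4 fell in GalN/LPS against saline (50%, against 25.6% of all genes). In pretreated against GalN/LPS 3 fell (37.5%, against 30.1%). Nop2, a methyltransferase of the 28S RNA, stood at 16.7, 22.5 and 14.9 CPM in saline, 19.3, 15.7 and 16.99 CPM in dmPGE2, 13.1, 11.97 and 12.6 CPM in GalN/LPS and 5.39, 6.08, 4.83 and 4.06 CPM in pretreated libraries. It changed by -0.52 ± 0.17 (log2 ± SE, adjusted p = 0.0184) and -1.30 ± 0.17 (log2 ± SE, adjusted p = 4.19e-05) with 3 groups that did not overlap, and the first call was lost without saline 2 (-0.34). Rrs1, needed to bring 5S RNA into the subunit, stood at 22.6, 19.3 and 17.9 CPM in saline, 22.999, 20.8 and 18.5 CPM in dmPGE2, 14.4, 12.2 and 18.9 CPM in GalN/LPS and 5.95, 7.24, 4.25 and 4.23 CPM in pretreated libraries. It was not called in the first step, -0.39 ± 0.20 (log2 ± SE, adjusted p = 0.114), where it passed without GalN/LPS 3 (-0.69) and without the filter (-0.52). In the second step it fell by -1.48 ± 0.20 (log2 ± SE, adjusted p = 4.76e-05). Rrp1b was low throughout, at 5.18, 5.53 and 3.84 CPM in saline, 5.24, 4.64 and 4.72 CPM in dmPGE2, 3.66, 1.76 and 2.97 CPM in GalN/LPS and 1.59, 1.502, 1.58 and 2.197 CPM in pretreated libraries. It changed by -0.78 ± 0.26 (log2 ± SE, adjusted p = 0.0183) and -0.72 ± 0.27 (log2 ± SE, adjusted p = 0.033). The first was lost without saline 1 or 2 or GalN/LPS 2 (-0.74, -0.69 and -0.56). The second was lost without GalN/LPS 1 or 3 or pretreated 1, 2 or 3 (-0.47, -0.69, -0.68, -0.65 and -0.68), in the fit of the 2 groups alone (-0.73) and on log2(FPKM + 1) or log2(FPKM + 0.1) values (-0.17 and -0.53), while against saline Rrp1b was lower by -1.50 ± 0.26 (log2 ± SE, adjusted p = 0.000103).

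The 3 proteins of the PeBoW complex, which works on the precursor of the 28S RNA, differed from each other. Wdr12 stood at 15.1, 17.3 and 15.1 CPM in saline, 13.8, 17.4 and 13.3 CPM in dmPGE2, 8.59, 9.07 and 7.57 CPM in GalN/LPS and 8.33, 7.44, 5.25 and 11.2 CPM in pretreated libraries. It fell by -0.91 ± 0.21 (log2 ± SE, adjusted p = 0.00157) in the first step, and against saline it was lower in pretreated livers by -0.97 ± 0.20 (log2 ± SE, adjusted p = 0.000411). The GalN/LPS and pretreated ranges overlapped. Pes1 stood at 25.8, 22.9 and 25.2 CPM in saline, 26.9, 27.1 and 23.8 CPM in dmPGE2, 20.7, 17.7 and 20.8 CPM in GalN/LPS and 21.5, 21.2, 17 and 17.2 CPM in pretreated libraries. Its first change, -0.32 ± 0.14 (log2 ± SE, adjusted p = 0.0576), passed without GalN/LPS 3 (-0.47), with library totals (-0.48), without the filter (-0.46) and on log2(FPKM + 1) values (-0.29). Against saline it was lower by -0.36 ± 0.13 (log2 ± SE, adjusted p = 0.0214), a call lost without saline 1 or 3 or pretreated 3 or 4 (-0.32, -0.34, -0.30 and -0.31). Bop1, at 18.7 ± 4.06 CPM (SD, n = 3) in saline and 23.9 ± 4.42 CPM (SD, n = 4) in pretreated livers, was not called, and its groups overlapped. It was called higher in pretreated against saline without saline 1 (0.51) or without pretreated 4 (0.43). With all libraries its change there was 0.35, or -0.33 with library totals, neither of them called. Nop16 fell in GalN/LPS, from 29.001 ± 1.47 CPM (SD, n = 3) to 20.05 ± 0.3396 CPM (SD, n = 3), -0.53 ± 0.15 (log2 ± SE, adjusted p = 0.00572). In pretreated livers it was at 28.3, 20.1, 21.3 and 19.4 CPM, -0.38 ± 0.14 (log2 ± SE, adjusted p = 0.022) against saline, which was not called without saline 1 or 2 or pretreated 2 or 4 (-0.35, -0.36, -0.33 and -0.32). Noc2l stayed between 14.4 and 23.7 CPM in all 13 libraries, and with library totals it was lower in pretreated livers against GalN/LPS (-0.52) and saline (-0.64). Wdr12 overlaps Carf by 399 bases on the other strand, with 452 counts for Carf against 2840.

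Of the 6 multifunctional nucleolar proteins, 1 fell and 1 rose in the first step (16.7% each, against 25.6% and 27.4% of all genes). In the second step 4 fell (66.7%, against 30.1%). Nolc1, a phosphoprotein that shuttles small nucleolar particles and binds RNA polymerase I, stood at 24.5, 30.4 and 23.1 CPM in saline, 25.4, 23.5 and 20.8 CPM in dmPGE2, 14.002, 11.9 and 20.3 CPM in GalN/LPS and 4.28, 5.46, 4.17 and 2.62 CPM in pretreated libraries. It changed by -0.75 ± 0.21 (log2 ± SE, adjusted p = 0.00764) and -1.89 ± 0.22 (log2 ± SE, adjusted p = 1.55e-05), to 0.160 times the saline level, which was the largest fall of any member against saline. Gnl3, the GTPase nucleostemin, stood at 25.02, 26.3 and 17.8 CPM in saline, 20.3, 16.6 and 17.8 CPM in dmPGE2, 18.7, 19.6 and 22.8 CPM in GalN/LPS and 9.52, 6.48, 5.25 and 6.25 CPM in pretreated libraries. It changed by -0.18 ± 0.19 (log2 ± SE, adjusted p = 0.461), then by -1.56 ± 0.19 (log2 ± SE, adjusted p = 2.17e-05), with no overlap in the second step. Mybbp1a, a repressor of polymerase I transcription that also joins processing, went from 48.3 ± 3.78 CPM (SD, n = 3) in GalN/LPS to 34.3 ± 5.56 CPM (SD, n = 4) in pretreated livers, -0.49 ± 0.13 (log2 ± SE, adjusted p = 0.00628). Ddx21, a helicase that senses polymerase status, was the one member called higher in GalN/LPS against saline and lower in pretreated against GalN/LPS. With no call in pretreated against saline, that pattern held in 1 member and in 6.02% of all genes. Ddx21 stood at 25.9, 28.4 and 27.8 CPM in saline, 30.8, 26.1 and 26.3 CPM in dmPGE2, 41.3, 34.6 and 41.2 CPM in GalN/LPS and 26.1, 26.5, 18.8 and 25.3 CPM in pretreated libraries. Every GalN/LPS library lay above every other library. The rise was 0.51 ± 0.14 (log2 ± SE, adjusted p = 0.00637), which was lost without GalN/LPS 3 (0.36), with library totals (0.36) and without the filter (0.38). The fall was -0.69 ± 0.13 (log2 ± SE, adjusted p = 0.000627), and against saline the value was -0.18 ± 0.13 (log2 ± SE, adjusted p = 0.245), or -0.85 and past the test with library totals. Npm1, the abundant chaperone nucleophosmin, stood at 90.5, 113 and 97.1 CPM in saline, 77.8, 93.9 and 73.7 CPM in dmPGE2, 133, 129.6 and 122 CPM in GalN/LPS and 139, 129, 144 and 191 CPM in pretreated libraries. Its changes in single steps were 0.35 ± 0.16 (log2 ± SE, adjusted p = 0.0667) and 0.23 ± 0.15 (log2 ± SE, adjusted p = 0.181). The first passed without saline 2 (0.44) and was 0.19, not past the test, with library totals. The second turned to -0.29 with library totals. Against saline it rose in pretreated livers by 0.59 ± 0.15 (log2 ± SE, adjusted p = 0.00238), which turned to -0.10 with library totals. Ncl, nucleolin, was at 144 to 174 CPM in GalN/LPS, 155 to 184 CPM in pretreated and 161 to 163 CPM in saline libraries and passed no test with TMM scaling. With library totals it was lower in pretreated livers against GalN/LPS (-0.40) and saline (-0.63).

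Given alone, dmPGE2 changed none of the 31 members, nor any of the 14280 genes, at the adjusted threshold of the edgeR test (0% called). No member was called by DESeq2, by limma or without the filter on low counts, while over all genes these called 137 higher and 140 lower (DESeq2), 12 and 4 (limma on log2(FPKM + 1)) and 290 and 171 (edgeR without the filter, of 26810). At an unadjusted p under 0.05 the edgeR test held 1 member and 1990 of all genes. The 31 log2 changes lay between -0.58 and 0.13, and their 95% intervals extended by 0.26 (Ubtf) to 0.80 (Nop56) either side, with a median of 0.37. In 5 members every dmPGE2 library lay below every saline library (16.1%, against 12% of all genes). Polr1b was one of them, with a change of -0.40 ± 0.20 (log2 ± SE, adjusted p = 0.385).

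The effect of dmPGE2 in GalN/LPS livers, less its effect in livers without GalN/LPS, was tested as an interaction. It was negative and past the test in 12 members and positive in 2, against 19.6% and 15.4% of all genes, and with library totals in 18 and 0, against 36.4% and 1.28%. The largest were Nolc1 at -1.73 ± 0.31 (log2 ± SE, adjusted p = 0.00136), Rrs1 at -1.54 ± 0.28 (log2 ± SE, adjusted p = 0.00163) and Wdr43 at -1.49 ± 0.26 (log2 ± SE, adjusted p = 0.00134). For RNA polymerase I, Rrn3 passed at -1.14 ± 0.30 (log2 ± SE, adjusted p = 0.0095) and Ubtf at -0.82 ± 0.17 (log2 ± SE, adjusted p = 0.0029), while Polr1a and Polr1b did not pass. For dmPGE2 alone the labels give 6 h but not whether this counts from dmPGE2, so timing and the interaction cannot be told apart.

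The rest of the pathway, in 6 lists by role and without the 31, was counted in the same way. In the first step 49% to 59.1% of the genes of each list fell, against 25.6% of all genes. In the second the share was 37.5% for RNA polymerase I, 44.9% for the small subunit and 60% for the large subunit, and 25%, 23.1% and 31.8% for particle assembly, exosome and RNA polymerase III, near or below the 30.1% of all genes. Of 16 other RNA polymerase I genes tested, 9 fell and 0 rose in GalN/LPS against saline, and 6 fell and 2 rose in pretreated against GalN/LPS. Twistnb, a stalk subunit, changed by -1.17 ± 0.19 (log2 ± SE, adjusted p = 7.76e-05) and Taf1a, of the promoter selectivity complex SL1, by -1.28 ± 0.30 (log2 ± SE, adjusted p = 0.00179) in the first step. Taf1c, of the same complex, changed by -1.54 ± 0.40 (log2 ± SE, adjusted p = 0.00461) in the second. Polr2k and Polr2e, subunits shared by the 3 nuclear polymerases, rose there by 0.48 ± 0.17 (log2 ± SE, adjusted p = 0.0248) and 0.32 ± 0.13 (log2 ± SE, adjusted p = 0.0407), but with library totals they were at -0.03 and -0.21 and these rises were also lost under 5 and 13 of 15 alternatives, among them leaving out GalN/LPS 1 (0.37 and 0.34). Of 49 other small subunit genes, 24 fell and 3 rose in the first step and 22 fell and 7 rose in the second. Bms1, the GTPase of the processome, changed by -0.68 ± 0.20 (log2 ± SE, adjusted p = 0.00808) and -1.35 ± 0.20 (log2 ± SE, adjusted p = 9.14e-05). Mphosph10 changed by -1.63 ± 0.24 (log2 ± SE, adjusted p = 8.58e-05) in the second step, and Rcl1 and the kinase gene Riok2 by -1.96 ± 0.17 (log2 ± SE, adjusted p = 1.25e-07) and -1.46 ± 0.14 (log2 ± SE, adjusted p = 3.6e-07) in the first. Riok3 rose, by 0.61 ± 0.13 (log2 ± SE, adjusted p = 0.000792). In the second step Imp4, Rcl1 and Wdr46 were higher, by 0.60 ± 0.14 (log2 ± SE, adjusted p = 0.00194), 0.55 ± 0.16 (log2 ± SE, adjusted p = 0.00908) and 0.51 ± 0.14 (log2 ± SE, adjusted p = 0.00699), none of them past the test with library totals (0.10, 0.07 and 0.02). The rise of Rcl1 was also lost without GalN/LPS 1 or 3 (0.41 and 0.45).

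Of 50 other large subunit genes, 25 fell and 2 rose in the first step and 30 fell and 3 rose in the second. The export adaptor gene Nmd3 changed by -1.49 ± 0.18 (log2 ± SE, adjusted p = 3.48e-06) and -0.69 ± 0.18 (log2 ± SE, adjusted p = 0.00409), and Lsg1, the GTPase that releases the adaptor, by -1.41 ± 0.18 (log2 ± SE, adjusted p = 9.43e-06) and -0.83 ± 0.18 (log2 ± SE, adjusted p = 0.00175). Surf6 changed by -0.75 ± 0.17 (log2 ± SE, adjusted p = 0.00163) and -1.22 ± 0.17 (log2 ± SE, adjusted p = 7.46e-05). Ddx24 changed by -1.17 ± 0.16 (log2 ± SE, adjusted p = 5.72e-05) in the second step. Nsa2 was higher in both, 0.53 ± 0.13 (log2 ± SE, adjusted p = 0.00233) and 0.45 ± 0.12 (log2 ± SE, adjusted p = 0.00576), of which the first was lost without the filter (0.39) and the second turned to -0.06 with library totals. Mdn1, a giant ATPase that remodels the pre-60S particle, rose by 0.71 ± 0.18 (log2 ± SE, adjusted p = 0.00346) and then changed by -1.0 ± 0.17 (log2 ± SE, adjusted p = 0.000271), the same order as Ddx21. Its rise was not called without GalN/LPS 3 (0.46).

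Among 12 assembly factors of small nucleolar particles, 7 fell and 1 rose in the first step and 3 fell and 1 rose in the second. Znhit6, Rpap3 and Nufip1, which load the box C/D proteins, changed by -1.83 ± 0.28 (log2 ± SE, adjusted p = 5.67e-05), -1.52 ± 0.24 (log2 ± SE, adjusted p = 8.05e-05) and -0.91 ± 0.20 (log2 ± SE, adjusted p = 0.0012). In the second step Nufip1 was lower too, by -1.38 ± 0.21 (log2 ± SE, adjusted p = 0.000133). Tcof1, the treacle protein that works with upstream binding factor, was the riser, from 5.97 ± 1.02 CPM (SD, n = 3) in saline to 12.3 ± 2.76 CPM (n = 3) in GalN/LPS, 1.05 ± 0.21 (log2 ± SE, adjusted p = 0.0006), and then -1.20 ± 0.20 (log2 ± SE, adjusted p = 0.000233). The 13 exosome genes tested had 7 falls and 0 rises, then 3 falls and 2 rises. Exosc4 changed by -1.47 ± 0.16 (log2 ± SE, adjusted p = 1.11e-06) and Exosc7 by -0.88 ± 0.14 (log2 ± SE, adjusted p = 8.38e-05) in the first step. In the second, Exosc7 rose by 0.78 ± 0.14 (log2 ± SE, adjusted p = 0.000324), or 0.27 and not past the test with library totals, and the helicase gene Skiv2l2 changed by -1.07 ± 0.24 (log2 ± SE, adjusted p = 0.00194). Of 22 RNA polymerase III genes, 13 fell and 1 rose, then 7 fell and 3 rose. The riser of the first step was Polr3k, from 12.4 ± 1.10 CPM (SD, n = 3) in saline to 17.7 ± 3.86 CPM (n = 3) in GalN/LPS. Crcp and Polr3c were among the 3 of the second. With library totals 0 of the 22 rose in either step. Gtf3c4 changed by -1.91 ± 0.18 (log2 ± SE, adjusted p = 3.8e-07) and -1.28 ± 0.20 (log2 ± SE, adjusted p = 0.000125), and Maf1, the repressor of that polymerase, by -0.84 ± 0.15 (log2 ± SE, adjusted p = 0.000234) and -0.997 ± 0.15 (log2 ± SE, adjusted p = 0.000115). Over these 162 genes 85 fell and 7 rose in the first step (52.5% and 4.32%, median -0.49), and 71 fell and 18 rose in the second (43.8% and 11.1%, median -0.37). The shares of all genes were 25.6% and 27.4%, and 30.1% and 24.4%. With library totals the counts were 91 and 4, and 115 and 0, against 30% and 21.5%, and 47.6% and 4.33%, of all genes.

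**Figure D4:**
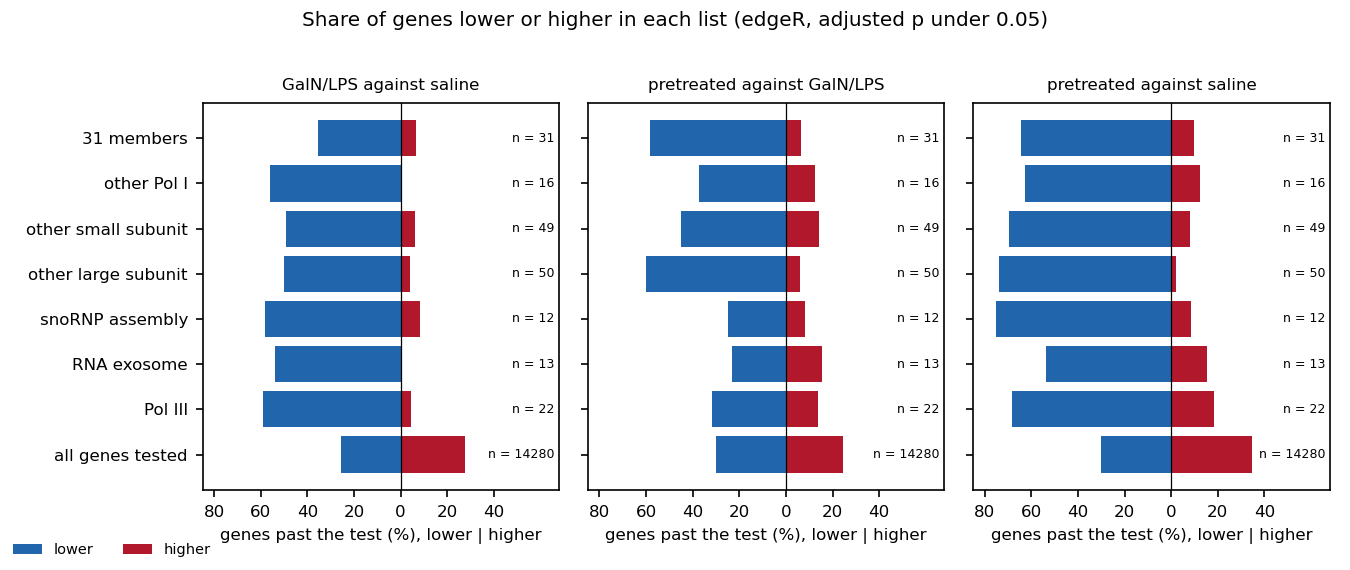
Percent of genes in each list that were lower (left of 0) or higher (right of 0) past the test in 3 comparisons, with the number tested. The 31 members had 35.5%, 58.1% and 64.5% lower, against 25.6%, 30.1% and 30.2% of all genes in the lowest bar.

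Myc itself varied between libraries of one group. It stood at 31.2, 3.14 and 18.6 CPM in saline, 23.3, 12.8 and 25.5 CPM in dmPGE2, 26.6, 28.97 and 39.3 CPM in GalN/LPS and 14.3, 3.62, 2.17 and 2.54 CPM in pretreated libraries. Saline 2 was as low as the pretreated livers. The change in GalN/LPS against saline was 0.84 ± 0.62 (log2 ± SE, adjusted p = 0.271), which passed only without the filter on low counts (0.70). It was 1.52 without saline 1 and 0.33 without saline 2. The change in pretreated against GalN/LPS was -2.48 ± 0.62 (log2 ± SE, adjusted p = 0.00358), with no overlap. Mxd1, a Max partner that opposes Myc, went from 5.23 ± 0.292 CPM in saline (SD, n = 3) to 110.3 ± 20.5 in GalN/LPS (n = 3) and 24.5 ± 4.45 in pretreated livers (n = 4), 4.40 ± 0.20 (log2 ± SE, adjusted p = 1.33e-10) and -2.17 ± 0.16 (log2 ± SE, adjusted p = 6.54e-07). Max, the shared partner, was called higher in the first step, from 17.2 ± 1.43 CPM in saline (SD, n = 3) to 25.4 ± 3.29 CPM in GalN/LPS (n = 3). In the second step Max changed by -1.08 ± 0.15 (log2 ± SE, adjusted p = 5.58e-05). Mycl, a relative of Myc, was lower in GalN/LPS livers by -2.55 ± 0.28 (log2 ± SE, adjusted p = 1.79e-06). Of 11 Myc network genes, 2 rose and 1 fell in the first step (18.2% and 9.09%, against 27.4% and 25.6% of all genes) and 2 rose and 4 fell in the second (18.2% and 36.4%, against 24.4% and 30.1%). The 2 that rose in the second were Mlx and Mxi1. With library totals 1 and 0 of the 11 rose in the 2 steps, against 21.5% and 4.33% of all genes. In pretreated against saline the 6 members with an E box in their promoter had a median log2 change of -1.27 (range -2.35 to -0.36) and the 21 whose promoter held none had -0.97 (range -2.64 to 0.80). The medians were -0.30 and -0.31 in GalN/LPS against saline, and -0.89 and -0.69 in pretreated against GalN/LPS. Whether members with and without an E box differ was not tested.

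Of the 31 members, 6 carry 19 small nucleolar RNA genes on their own strand, 5 of them inside Nop56, 4 inside Nop58 and 3 each inside Gnl3, Ncl and Wdr43. Those RNAs had few counts of their own (0 in 13 of the 19, and at most 15 over all libraries). There were 8 members that overlap another expressed gene on the other strand by 5 to 987 bases, and the strand setting of the counting was not given in the sources used. Across the 31 members, longer genes changed more toward lower values: Spearman's rho of gene length and log2 change was -0.43 in GalN/LPS against saline, -0.31 in pretreated against GalN/LPS and -0.37 in pretreated against saline, where over all 14280 genes it was -0.05, -0.13 and -0.14. These are correlations across genes of the same libraries, which are not independent replicates. Nuclear ribosomal RNA genes in the table took 0.0915 to 0.118% (saline), 0.0446 to 0.155% (dmPGE2), 0.113 to 0.21% (GalN/LPS) and 0.102 to 0.246% (pretreated) of counts. These ranges overlapped. Mitochondrial ribosomal RNA did separate the groups, at 0.0390 to 0.0770% (saline), 0.0191 to 0.0231% (dmPGE2), 0.921 to 1.22% (GalN/LPS) and 0.235 to 0.377% (pretreated) of counts, and its part in the members' changes was not tested. Selection of poly-A RNA was not given in the sources used, so the nuclear share is no measure of ribosomal RNA output.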

How the data were processed

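Liver RNA of 13 libraries was sequenced. The authors deposited whole-number read counts per Ensembl gene and FPKM for the same libraries, and both were used as deposited. HISAT2 and the build GRCm38/mm10 are named per the submitters' processing notes. The read counter, annotation release and strand setting were not given in the sources used. Each column was assigned by the group and replicate number in its name, and those named ALF were taken as GalN/LPS. The design text of the series speaks of AILI mice, a term the sample labels do not use, and groups follow the sample labels.

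Counts were fitted with edgeR 4.0.16 (R 4.3.3) over all 13 libraries with group as the only term: filterByExpr by group (14280 of 54532 genes, 99.9% of counts), TMM scaling and the two-sided quasi-likelihood F test with Benjamini-Hochberg adjustment at 0.05 over all genes. CPM here are TMM-scaled. Alternatives were library totals, DESeq2 1.42.0, limma 3.58.1 on log2(FPKM + 1) or log2(FPKM + 0.1), no filter, only the groups compared, replicate number as a block and leaving out each library. Only the edgeR fit was tried on simulated counts, for GalN/LPS against saline, with equal numbers of genes changed each way. No shift in scaling between groups was simulated. All 31 members were to be named, with up to 2 genes each way from each pathway list in each of 2 comparisons, and always Myc. From the list genes, those printed were picked after their values were seen. Also chosen by that rule but not named above were Pno1, Las1l, Pih1d1 and C1d, which were higher, and Baz2a, Exosc10 and Gtf3c1, which were lower. Members and lists were chosen with earlier results of these data known. All 277 list entries matched.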

Additional observations from a re-analysis of the deposited data

Results flagged for a closer look

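In the pretreated group, the one with 4 libraries, Dixon's test at 95% set 1 library apart in 4 of the 31 members. Chance sets apart about 1 in 20 groups of normally distributed values. The test was run on the 31 members only, so no share over all genes can be set beside this count. Nop56 was at 26.9 CPM in pretreated 1, above the other 3. Nop10 was at 64.4 CPM in pretreated 2, below the other 3. Rrp1b was at 2.20 CPM in pretreated 4, above the other 3, and Ddx21 at 18.8 CPM in pretreated 3, below the other 3. The 4 values come from 4 different libraries.

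The effect of dmPGE2 differed between livers with and without GalN/LPS in 14 members by the interaction test of edgeR. It was more negative in GalN/LPS livers (log2) in Nolc1 (-1.73), Rrs1 (-1.54), Wdr43 (-1.49), Nop2 (-1.24), Gnl3 (-1.23), Gar1 (-1.20), Rrn3 (-1.14), Nop58 (-1.13), Wdr75 (-0.98), Ubtf (-0.82), Ddx21 (-0.71) and Nop14 (-0.66). It was more positive in Nhp2 (0.78) and Nop10 (0.64), which became 0.20 and 0.06, not past the test, with library totals. Nop10 was also not past it without the filter (0.58). Gar1 did not pass without saline 2 (-1.05), saline 3 (-1.24), GalN/LPS 3 (-1.10), pretreated 3 (-1.19), pretreated 4 (-1.17), dmPGE2 1 (-1.21) or dmPGE2 2 (-1.10). Nop14 did not pass without saline 1, 2 or 3 (-0.63, -0.66 and -0.65), GalN/LPS 3 (-0.57), pretreated 3 (-0.56) or dmPGE2 1, 2 or 3 (-0.68, -0.62 and -0.64), nor without the filter (-0.71). Rrn3, Nop58 and Wdr75 did not pass on log2(FPKM + 1) without a filter (-0.58, -0.50 and -0.50).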

How the results depend on the processing

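With library totals in place of TMM no member rose: the count higher was 0 in all 4 comparisons other than dmPGE2 against saline, where it was 0 already. Nop10 (-0.11), Nsa2 (-0.063), Polr2k (-0.031) and Polr2e (-0.21) in pretreated against GalN/LPS, and Nhp2 (-0.18) and Npm1 (-0.10) in pretreated against saline, changed sign there, as did 4, 5, 4 and 6 members that were not called in the first step, the second step, pretreated against saline and the interaction, among them Npm1 (-0.29, pretreated against GalN/LPS). Over all alternatives 6, 9, 4 and 9 of these uncalled members changed sign. With library totals the median of all genes shifted as well, as given above. Why signs changed under the other alternatives was not tested. Without the filter on low counts the counts higher were 0, 1 and 1 in GalN/LPS against saline, the later pretreated step and the interaction, and the cause was not tested. Leaving out single libraries gave 8 to 16 lower and 0 to 3 higher in GalN/LPS against saline, 14 to 18 and 1 to 2 in pretreated against GalN/LPS, 18 to 22 and 3 to 4 in pretreated against saline, 10 to 13 and 2 to 3 in the interaction, and 0 in dmPGE2 against saline. Of all genes in these fits, 22.3 to 26.3% were lower and 21.7 to 26.1% higher in GalN/LPS against saline. The shares were 23.9 to 29.8% and 17 to 24.8% in pretreated against GalN/LPS. They were 26.8 to 29.7% and 30.7 to 34.1% in pretreated against saline, and 14 to 21% and 9.43 to 18.4% in the interaction. Of the members called, 8 of 13, 14 of 20, 18 of 23 and 7 of 14 kept their call and direction under every alternative run, in the order GalN/LPS against saline, the step from GalN/LPS to pretreated, pretreated against saline and the interaction. On log2(FPKM + 1) the changes of low genes shrink by construction. Summed levels were 98.7% of saline in GalN/LPS and 96.7% in pretreated livers by FPKM, and 93.2% and 84.7% by CPM, which does not divide by length.

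The labels state no pairing by replicate number, and groups of 3 or 4 libraries cannot decide whether there was one. Deviations of same-numbered libraries from their group means correlated at -0.39 to 0.15. Of 3 libraries, 2, 0, 2 and 0 correlated best with their own number in GalN/LPS against saline, pretreated livers against those of GalN/LPS, dmPGE2 against saline and pretreated against saline. With the replicate number as a block, counts lower and higher were 10 and 3, 17 and 1, 0 and 0, and 18 and 4 in these comparisons, and 10 and 2 in the interaction. In the same order, the shares of all genes were 24.5% and 26%, 26% and 20.8%, 0% and 0%, 28.3% and 32.1%, and 15.1% and 10.9%, all with that block. The calls not made with it were Ubtf in GalN/LPS against saline (-0.31), Nop56 (-0.91), Nop10 (0.37), Polr2k (0.46) and Polr2e (0.31) in pretreated against GalN/LPS, Pes1 (-0.31) and Nop16 (-0.32) in pretreated against saline, and Gar1 (-1.19) and Nop14 (-0.66) in the interaction, and those added were Npm1 in GalN/LPS against saline (0.36) and Bop1 in pretreated against saline (0.44).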
